A study of Mus musculus with 32 samples.

Results

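The transcription factors that set granulocyte and monocyte fate were examined as 8 genes: Cebpa, Cebpb, Cebpd, Cebpe, Spi1, Gfi1, Irf8 and Klf4. They were chosen by name, and all 8 had a row among the 33924 genes of the count table, Spi1 under its older symbol Sfpi1. The counts came from bulk RNA sequencing of sorted bone marrow progenitors of mice with the genotype Jak2V617F, the activating kinase mutation of myeloproliferative neoplasms. In every group, vehicle included, the mutation had been switched on ex vivo with Dre mRNA and the cells had been transplanted into irradiated hosts, so no group without the mutation stands beside these data. LSK cells (lineage negative, Sca1+, Kit+) are a mixture of stem and multipotent progenitor cells, and MEP cells give rise to megakaryocytes and red cells. Batch A held vehicle mice (day 0 in the labels) and mice given tamoxifen (TAM), which activates Cre to delete Jak2V617F, sampled at day 3 or day 7. Batch C held vehicle mice (day 0) and mice treated for 7 days with ruxolitinib, an inhibitor of JAK1 and JAK2. LSK cells gave 4 vehicle, 3 day 3 and 4 day 7 libraries in batch A, and 2 vehicle and 3 ruxolitinib libraries in batch C. MEP cells gave 3, 4 and 3 libraries in batch A, and 3 and 3 in batch C. The labels name no promoter for Cre and no tamoxifen group that lacked the deletable allele, and the ages of the mice are not given there. A change at day 3 or day 7 therefore cannot be told apart from an effect of tamoxifen or of elapsed time, nor a change under ruxolitinib from one of elapsed time.

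These factors work as a small network. PU.1, the product of Spi1, and C/EBPα, the product of Cebpa, open the granulocyte and monocyte programme in early progenitors, and PU.1 and GATA1 antagonise each other at the branch to the red cell lineage. Within the myeloid branch, C/EBPε and GFI1 are known for granulocyte maturation and IRF8 and KLF4 for the monocyte branch, with IRF8 also required for dendritic cell lineages. C/EBPβ is best known for granulocyte production under stress, and C/EBPδ is a close relative induced in inflammation. JAK2 signals mainly through STAT proteins, which bind sites of the form TTCNNNGAA.

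The genes lie on 7 chromosomes, and all are annotated as protein coding (GENCODE M21 on mm10). Cebpa (chr7:35119293-35121928, plus strand), Cebpb (chr2:167688915-167690418, plus) and Cebpd (chr16:15887286-15891031, plus) each formed 1 exon block without introns. Cebpe (chr14:54710360-54712174, minus) had 2 exon blocks, Klf4 (chr4:55527143-55532466, minus) 5, Spi1 (chr2:91082390-91115756, plus) 7, Gfi1 (chr5:107716657-107726036, minus) 8 and Irf8 (chr8:120736358-120756694, plus) 11. Cebpa, Cebpb, Cebpd and Gfi1 are each overlapped by a gene on the other strand (Gm45091, Tmem189, Spidr and A430072P03Rik). No source used here states the strand setting of the counting, so reads of these 4 genes and of their antisense partners cannot be told apart. Irf8 is overlapped on its own strand by Gm20388, which has 0 counts in all 32 libraries; how reads in the shared exons were assigned is not stated.

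Promoter windows from RefSeq (build GRCm38.p6, 250 bases before to 50 after the start site) were matched for 5 of the 8 genes, in 7 windows. Of 5 motifs searched on both strands, 3 had a match. The STAT form TTCNNNGAA matched in 8.3% of all 32851 windows, and it matched at 2 places in 1 window of Irf8, TTCTCGGAA at position -171 and TTCAGAGAA at position -153 from the start site. The C/EBP form TTGCNNAA matched in 10.8% of all windows and once in a Gfi1 window, as TTGCTGAA at position -143. The IRF form AANNGAAA matched in 23.9% of windows and once in the other Gfi1 window, as TTTCGCTT on the opposite strand at position -39. The PU.1 form GAGGAAGT (3.2% of windows) and the GATA form AGATAA (11.2%) matched in none of the 7, and no motif matched in the windows of Cebpa, Cebpb and Klf4. A match is a description of the letters, not evidence of binding. The 250 bases upstream of the start are shown 5′ to 3′ for Irf8 (chr8:120736108-120736357, plus strand) and Gfi1 (chr5:107725806-107726055, minus strand), whose windows hold the STAT and C/EBP forms, and for Klf4 (chr4:55532476-55532725, minus strand), which passed a test below and holds no match. Capitals mark the matches.
Irf8: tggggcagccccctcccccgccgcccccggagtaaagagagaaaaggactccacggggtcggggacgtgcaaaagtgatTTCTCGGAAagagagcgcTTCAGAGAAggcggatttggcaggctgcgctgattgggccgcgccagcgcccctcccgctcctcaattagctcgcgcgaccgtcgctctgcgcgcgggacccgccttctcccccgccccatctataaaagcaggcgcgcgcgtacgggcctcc
Gfi1: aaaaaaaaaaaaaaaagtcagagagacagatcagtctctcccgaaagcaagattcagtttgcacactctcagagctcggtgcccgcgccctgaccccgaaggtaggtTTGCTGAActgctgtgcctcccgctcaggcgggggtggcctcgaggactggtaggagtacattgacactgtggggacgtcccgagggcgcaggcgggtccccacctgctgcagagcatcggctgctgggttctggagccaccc
Klf4: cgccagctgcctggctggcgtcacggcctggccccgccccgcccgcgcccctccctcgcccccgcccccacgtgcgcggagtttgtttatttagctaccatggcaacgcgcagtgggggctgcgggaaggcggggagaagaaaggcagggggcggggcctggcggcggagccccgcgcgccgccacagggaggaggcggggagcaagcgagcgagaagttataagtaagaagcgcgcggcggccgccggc

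Total counts per library ran from 11.2 to 28.8 M counts in batch A and from 26.5 to 55.5 M counts in batch C, so the rare transcripts described here were counted more precisely in batch C. Levels are given as CPM, the count in each 1 M counts of the library after scaling with TMM factors. Tests are edgeR's quasi-likelihood F test, two-sided, with p-values adjusted by Benjamini-Hochberg over all genes tested and a threshold of 0.05, and a log2 change carries its standard error (SE). Jak2 itself, whose total count does not separate the mutant from the normal allele, ranged from 14.3 to 32.9 CPM in LSK and from 11.8 to 38 CPM in MEP libraries and was called in 0 of 6 treatment comparisons (smallest adjusted p 0.215). The defining markers placed the sorts as labelled: the 10 LSK markers summed to 1190 to 5250 CPM in LSK and 276 to 1270 CPM in MEP libraries, and the 10 MEP and erythroid markers to 529 to 3520 and 6100 to 14500 CPM. Several LSK libraries also carried transcripts of mature cells. The 8 macrophage markers summed to 3180 CPM in vehicle A replicate 3, against 125 to 171 in the other 3 vehicle A libraries, and to 1110 to 7720 at day 3. The 6 eosinophil markers summed to 6090 and 4110 CPM in vehicle A replicates 1 and 3 and to 7230 in vehicle C replicate 1, against 35 to 547 in the other LSK libraries. The dendritic cell markers summed to 389 CPM in vehicle A replicate 2 and 881 CPM in vehicle C replicate 2, which bear the same number, 18, in the labels, and to 77.8 to 216 in the other LSK libraries. The dendritic cell list shares Flt3 with the LSK markers, so it does not mark mature cells alone. The LSK markers summed to 4700 CPM in vehicle A replicate 2 and 5250 CPM in vehicle C replicate 2. The 8 B cell markers summed to 463, 886, 2530 and 7950 CPM in the vehicle A libraries, 115 to 277 at day 3, 237 to 504 at day 7, and 443 to 1290 in batch C. The part of these cells in the results below was not tested. In bulk samples, fewer cells of a type and less RNA per cell cannot be told apart.

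Irf8 was the most abundant of the factors under vehicle A in both cell types, and most of the others were rare transcripts. Per kilobase of exon, in LSK vehicle A, Irf8 stood at 19.1 ± 15.7 CPM per kb (SD, n = 4), Spi1 at 3.21 ± 0.923 and Cebpe at 2.64 ± 1.67. Spi1 and Cebpe did not differ beyond their spread. Gfi1 followed at 0.805 ± 0.192 CPM per kb, and Klf4 (0.454 ± 0.277), Cebpa (0.342 ± 0.19) and Cebpb (0.299 ± 0.115) lay within each other's spread. Cebpd was last at 0.0316 ± 0.0217 CPM per kb. The mean of Spi1 stood above that of Irf8 in LSK vehicle C (32.9 against 23.9 CPM per kb), LSK ruxolitinib (19.5 against 7.62) and MEP ruxolitinib (1.48 against 0.514). In MEP vehicle A the order began with Irf8 (1.17 ± 0.0963, n = 3) and Spi1 (0.628 ± 0.16), followed by Klf4 (0.258 ± 0.0294) and Cebpb (0.256 ± 0.199), which were level. Gfi1 (0.126 ± 0.106) and Cebpe (0.117 ± 0.116) came next, and Cebpa (0.0574 ± 0.0406) and Cebpd (0.0251 ± 0.0151) were lowest. Under vehicle A, Klf4 and Cebpb thus stood above Gfi1 and Cebpe in MEP cells and below them in LSK cells, as ranks of the means. Klf4 lay below Gfi1 in MEP vehicle C (0.173 against 0.188 CPM per kb) and MEP ruxolitinib (0.0592 against 0.0715). The raw counts show how little was measured: Cebpb had 3 to 21 and Cebpd 1 to 26 counts in LSK libraries, and in MEP libraries Cebpa, Cebpd and Cebpe had at most 10 counts and Cebpb at most 17.

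**Figure D1:**
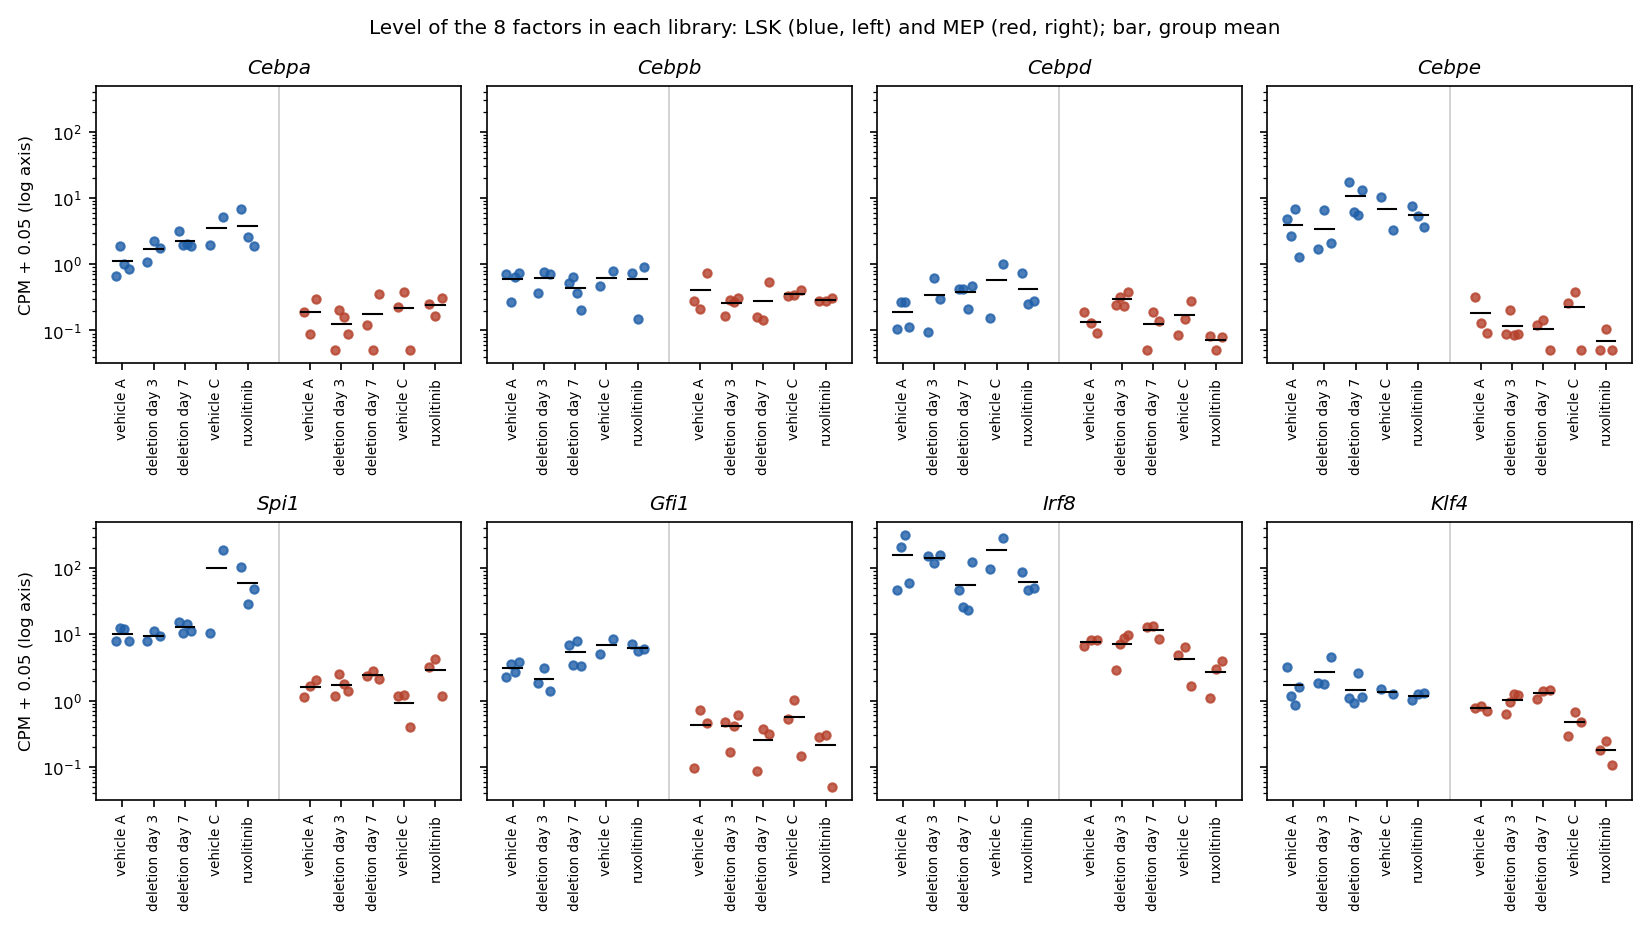
Level of each factor in each of the 32 libraries, as CPM plus 0.05 on a log axis, for the 10 groups (LSK blue, MEP red, bars are group means). CPM are scaled within each cell type. Irf8 has the highest mean in 9 of the 10 groups, Spi1 in MEP ruxolitinib, and the vehicle C group of Spi1 in LSK splits into 10.3 and 190 CPM. Over all groups the Cebpb values of LSK and MEP libraries overlap, with lower group means in MEP.

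The first comparison asks how the factors differ between the MEP and LSK compartments while the mutation is active. Under vehicle in batch A, MEP cells had less of 5 of the 8 factors than LSK cells: Cebpa, Cebpe, Spi1, Gfi1 and Irf8. The same 5 were lower in batch C, whereas Cebpb, Cebpd and Klf4 passed in neither batch. Cebpa, Cebpb, Cebpd and Cebpe had too few counts to be tested in MEP libraries alone. Cebpa and Cebpe entered this comparison through their LSK counts, which favoured a lower level in MEP before any test. Spi1, Gfi1 and Irf8 were tested in each cell type alone as well. Each vehicle C library bears the label number of a vehicle A library of its cell type. Some LSK and MEP libraries of the same treatment share a number too, such as 12 under vehicle, and the test took them as independent. The labels do not say whether libraries of the same number come from the same mouse, so batch C may not be an independent repeat. Over all 28378 genes tested, 17.4% were called in batch A, 8.71% as lower in MEP, and 16.6% in batch C, 8.46% as lower. The median log2 difference was -2.45 over the 8 factors and -0.27 over all genes in batch A, and -3.63 and -0.21 in batch C. The medians over the factors include Cebpa and Cebpe.

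Irf8, the monocyte and dendritic cell factor, read 39.5, 183, 269 and 48.3 CPM in the LSK vehicle A libraries and 7.48, 8.71 and 8.59 CPM in the MEP ones, on the scale of all 32 libraries. The groups did not overlap, and the LSK libraries differed among themselves far more than the MEP ones. The log2 difference was -4.03 ± 0.55 (adjusted p = 1.84e-05 by edgeR). In batch C, Irf8 read 85.9 and 251 CPM in LSK and 5.8, 6.91 and 2.33 CPM in MEP, a log2 difference of -5.07 ± 0.66 (adjusted p = 2.29e-06). Over all 10 groups, no MEP library reached the lowest LSK library for Irf8. The same held for Spi1, Cebpa and Cebpe, of which Cebpa and Cebpe were near 0 counts in MEP. The share of all genes that separate in this way was not counted. For Spi1 the gap was narrow, at 6.07 CPM in the highest MEP library and 6.37 CPM in the lowest LSK one.

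Cebpe, the late granulocyte member of the C/EBP family, showed the largest difference of batch A. It read 4, 2.32, 5.77 and 0.988 CPM in LSK and 0.31, 0.085 and 0.0428 CPM in MEP, which is 20 to 126 counts against 1 to 6. The log2 difference was -4.50 ± 0.86 in batch A and -4.83 ± 0.89 in batch C (adjusted p = 0.000262 and 0.000141 by edgeR). Cebpa, the C/EBP member needed to form granulocyte and monocyte progenitors, had 11 to 42 counts in LSK and 1 to 6 in MEP vehicle A libraries, and its log2 difference was -2.55 ± 0.84 (adjusted p = 0.0291). That call was lost when only the compared groups were fitted (-2.35, adjusted p = 0.0588), and without LSK vehicle A replicate 2 (-2.09, adjusted p = 0.0891), MEP vehicle A replicate 1 (-2.56, 0.0941) or replicate 2 (-2.10, 0.158). In batch C, with 55 and 140 counts in LSK against 5, 10 and 0 in MEP, it was -3.96 ± 0.89 (adjusted p = 0.00126).

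Gfi1, a zinc finger repressor of granulocyte development, read 1.86, 3.14, 2.24 and 3.01 CPM in LSK and 0.0516, 0.722 and 0.428 CPM in MEP of batch A. The groups were apart, with a log2 difference of -2.64 ± 0.70 (adjusted p = 0.0089 by edgeR). It was not called without MEP vehicle A replicate 1 (-2.15, adjusted p = 0.0732). In batch C the difference was -3.29 ± 0.78 (adjusted p = 0.00258).

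Spi1 read 6.65, 11.2, 10.4 and 6.37 CPM in LSK and 1.24, 1.74 and 2.1 CPM in MEP of batch A, groups well apart with a log2 difference of -2.35 ± 0.55 (adjusted p = 0.00319 by edgeR). With the label number as a random block in limma voom, the difference of -2.25 had an adjusted p of 0.0913. In batch C the LSK libraries disagreed with each other, at 9.25 and 168 CPM, while MEP read 1.32, 1.27 and 0.513 CPM. The fitted log2 difference of -6.41 ± 0.65 (adjusted p = 4.22e-08) became -3.15 without LSK vehicle C replicate 2 (adjusted p = 0.00017) and -7.33 without replicate 1. The size in batch C was thus set by 1 library, and the 2 batches gave the same direction.

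Klf4, the monocyte factor, was the least different of the 6 more abundant genes, with log2 differences of -0.81 ± 0.52 (adjusted p = 0.388 by edgeR) and -1.15 ± 0.63 (0.248). Cebpb gave -0.21 ± 0.71 and -0.40 ± 0.82, and Cebpd -0.36 ± 1.06 and -1.55 ± 1.06. These standard errors leave room for differences of 2-fold and more in either direction for Cebpb and Cebpd in batch A.

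**Figure D2:**
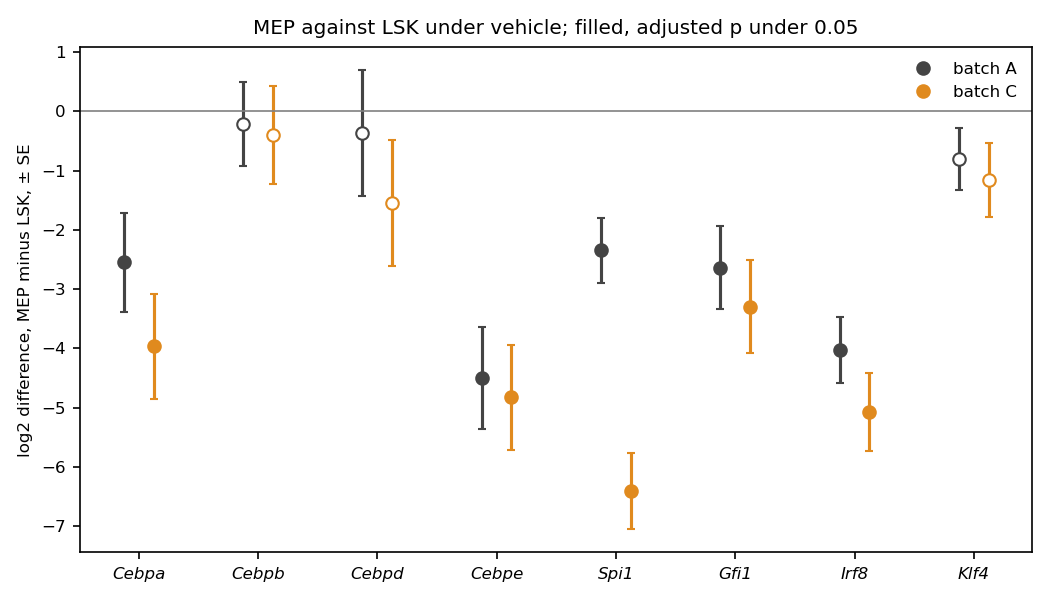
Fitted log2 difference, MEP minus LSK under vehicle, with its SE, in batch A (grey) and batch C (orange); filled points have an adjusted p under 0.05. Cebpa, Cebpe, Spi1, Gfi1 and Irf8 are filled in both batches and below 0, and Cebpb, Cebpd and Klf4 are open.

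Other genes of the network moved with this difference. Of 42 further factors of the myeloid fate network, 5 were higher and 19 lower in MEP in batch A, and 6 and 19 in batch C (medians -1.04 and -1.49). Gata1, the erythroid partner and antagonist of PU.1, was higher in MEP by 2.60 ± 0.27, and Gfi1b, the erythroid and megakaryocytic relative of Gfi1, by 2.07 ± 0.27 on the log2 scale in batch A. Meis1 (-5.28 ± 0.37), Mef2c (-3.05 ± 0.34) and Etv6 (-2.56 ± 0.30), factors of stem and multipotent cells, were lower. Of 33 genes known as targets of the 8 factors in granulocyte and monocyte progenitors, none was higher, 25 were lower in batch A and 24 in batch C, with medians of -3.07 and -4.12. The neutrophil elastase gene Elane (-8.75 ± 0.58) and the myeloperoxidase gene Mpo (-8.10 ± 0.52) differed more than any of the factors did.

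The next question was what deleting Jak2V617F did to the factors in LSK cells. None of the 8 passed the test at day 3 or at day 7, and the direct comparison of day 7 with day 3 called none. The background was equally sparse: 0% of 26930 genes were called at day 3, 0.104% at day 7 and 0.00743% between the 2 days. At an unadjusted p under 0.05 there were 0, 2 and 3 of the 8 factors, against 1019, 2405 and 2135 of all genes. Day 3 and day 7 share the 4 vehicle A libraries. The largest values at day 7 were nonetheless on opposite sides, with Irf8 below vehicle and Cebpe, Cebpd and Cebpa above it.

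Irf8 in LSK cells read 47.4, 205, 315 and 60.2 CPM under vehicle A, 150, 119 and 159 at day 3, and 46.2, 25.6, 23.5 and 124 at day 7. The vehicle libraries fell into a high and a low pair, and 1 of the 4 day 7 libraries lay among the vehicle values. The log2 change at day 7 was -1.52 ± 0.57 (adjusted p = 0.348 by edgeR). Leaving out day 7 replicate 4, the library at 124 CPM, brought it to -2.31 with an adjusted p of 0.0261, and leaving out vehicle A replicate 3, the one at 315 CPM with 3180 CPM of macrophage markers, brought it to -0.89 (adjusted p = 0.865). At day 3 the change was -0.14 ± 0.61, with macrophage markers at 1110 to 7720 CPM. B cell markers, whose lineage also uses Irf8, were at 463, 886, 2530 and 7950 CPM in vehicle A replicates 1 to 4. Irf8 read 47.4, 205, 315 and 60.2 CPM in the same order. At day 7 the B cell markers were at 237 to 504 CPM, and their part in the Irf8 values was not tested.

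Cebpe read 4.8, 2.61, 6.77 and 1.23 CPM under vehicle A, 1.63, 6.54 and 2.02 at day 3, and 17.6, 6.06, 5.5 and 12.9 at day 7. Only the vehicle library at 6.77 CPM reached into the day 7 range. Its log2 change at day 7 was 1.45 ± 0.57 (adjusted p = 0.394 by edgeR). Cebpa read 0.614, 1.83, 0.966 and 0.8 CPM under vehicle A and 3.14, 1.9, 2 and 1.83 at day 7, where each library was at or above the highest vehicle one. Its log2 change was 1.06 ± 0.53 (adjusted p = 0.609), on 11 to 42 counts against 35 to 60. Both values are rises in the means that this design did not separate from the spread once all genes were taken into account.

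Gfi1 read 2.23, 3.52, 2.63 and 3.76 CPM under vehicle A, 1.77, 3.07 and 1.35 at day 3, and 6.85, 3.42, 8.04 and 3.34 at day 7. The day 7 libraries lay above all day 3 ones, and 2 of them lay within the vehicle range. Against day 3 the log2 change was 1.39 ± 0.44 (adjusted p = 0.278 by edgeR), and DESeq2 called it, with an adjusted p of 0.0384. Against vehicle it was 0.83 ± 0.40 at day 7 and -0.55 ± 0.44 at day 3.

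Spi1 was level in batch A, at 7.98, 12.6, 12.1 and 7.94 CPM under vehicle, 7.84, 11.4 and 9.31 at day 3, and 15.2, 10.3, 14.2 and 11.3 at day 7. All 3 groups overlapped, and the log2 change at day 7 was 0.33 ± 0.54 (adjusted p = 1 by edgeR). Klf4 changed by -0.23 ± 0.53 at day 7 and 0.69 ± 0.57 at day 3, with library values from 0.805 to 4.53 CPM. Cebpb and Cebpd, at 3 to 16 and 1 to 13 counts per batch A library, gave -0.45 ± 0.71 and 1.20 ± 0.93 at day 7.

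The known target genes moved where the factors did not pass. Of the 33 targets, 6 rose at day 7 in LSK cells and none fell, with a median log2 change of 0.71 against -0.09 over all genes tested, of which 0.0557% rose. They were the calgranulin genes S100a8 (5.10 ± 0.43) and S100a9 (4.36 ± 0.64), F13a1 (3.08 ± 0.45), Camp (2.92 ± 0.52), Elane (2.58 ± 0.44) and Ms4a3 (2.14 ± 0.36), with adjusted p-values of 0.000134 to 0.0417 by edgeR. The target list was drawn up with earlier results of these libraries known, so its direction is not independent evidence. The 8 granulocyte and monocyte progenitor markers, all of them also on the target list, summed to 7760 to 15700 CPM at day 7 against 1440 to 4900 under vehicle A, and the 8 late neutrophil markers, 7 of them on that list, to 60.8 to 192 against 12.1 to 26.2 CPM. The part of such cells in the values at day 7 was not tested. Of the 42 other factors none was called in LSK cells at day 3, at day 7 or under ruxolitinib.

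Under ruxolitinib, LSK cells likewise gave no call among the 8 factors, beside 0.0223% of all genes. Irf8 read 95.7 and 284 CPM under vehicle C and 87.8, 47.3 and 49.9 CPM under ruxolitinib. The groups did not overlap, and the log2 change was -1.62 ± 0.73 (adjusted p = 0.546 by edgeR). It shrank to -0.63 without vehicle C replicate 2, the library with 881 CPM of dendritic cell markers. Spi1 read 10.3 and 190 CPM under vehicle C and 105, 28.9 and 47.8 under ruxolitinib, and its direction rested on 1 library: the log2 change was -0.72 ± 0.69 (adjusted p = 0.71 by edgeR) over all libraries and 2.56 without vehicle C replicate 2 (adjusted p = 0.201). With the label number as a random block in limma voom it was 0.32. All 3 ruxolitinib libraries lay above every LSK library of batch A, where the highest value was 15.2 CPM.

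The other 6 factors overlapped between vehicle C and ruxolitinib in LSK cells. Cebpa read 1.93 and 5.1 CPM under vehicle and 6.82, 2.51 and 1.81 under ruxolitinib, Gfi1 5.03 and 8.48 against 7.21, 5.51 and 5.94, and Cebpe 10.3 and 3.28 against 7.54, 5.28 and 3.62. Their log2 changes were 0.08 ± 0.65, -0.12 ± 0.51 and -0.31 ± 0.73. Klf4 stood at 1.44 and 1.2 CPM under vehicle and 0.96 to 1.27 under ruxolitinib (-0.21 ± 0.68). With 2 vehicle libraries the SE of these changes was 0.51 to 1.05, and Irf8 at -1.62 did not pass. Changes of that size could thus go uncalled with these libraries. The difference between the day 7 deletion response and the ruxolitinib response was called for none of the 8, beside 0.00371% of all genes. Cebpe gave the largest value for it, 1.76 ± 0.93 (adjusted p = 0.752 by edgeR), whereas Irf8 gave 0.10 ± 0.93.

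**Figure D3:**
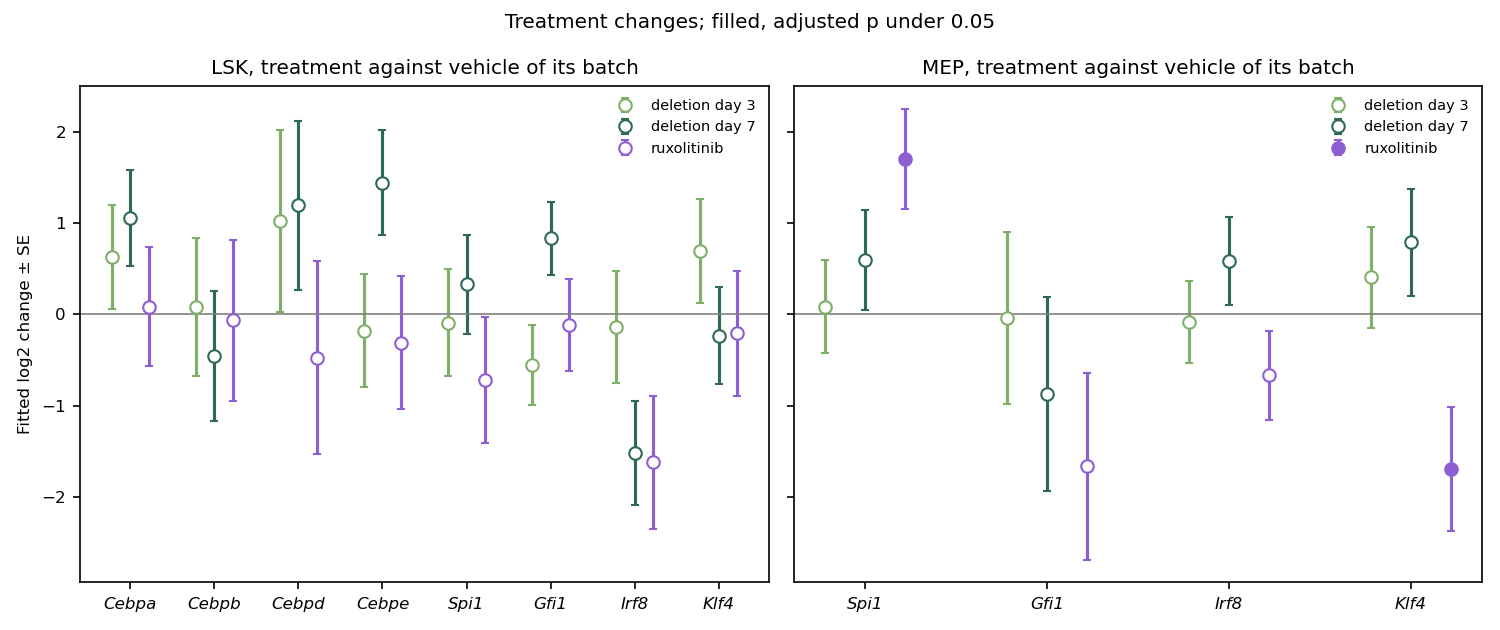
Fitted log2 change against vehicle of the same batch, with its SE, for the 8 factors in LSK and the 4 tested in MEP, at deletion day 3, deletion day 7 and under ruxolitinib; filled points have an adjusted p under 0.05. Only Spi1 (1.71) and Klf4 (-1.69) under ruxolitinib in MEP are filled, and Irf8 in LSK lies near -1.5 at day 7 and under ruxolitinib.

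The level of the same factor also differed between the 2 vehicle batches, which bears on every comparison across them. Vehicle libraries of batches A and C share label numbers, 12 and 18 in LSK and 12, 32 and 33 in MEP. In LSK, Spi1 of number 18 read 12.6 CPM in batch A and 190 CPM in batch C, while number 12 read 7.98 and 10.3 CPM. Irf8 of number 18 was high in both batches (205 and 284 CPM), and number 12 lower in both (47.4 and 95.7 CPM). Gfi1 (1.02 and 1.16 on the log2 scale, with 0.5 CPM added) and Cebpa (1.13 and 1.27) stood higher in batch C in both pairs. In MEP, Spi1 and Irf8 of number 33 were lower in batch C, at 2 and 0.356 CPM and at 8.21 and 1.62 CPM. The labels do not say whether libraries of the same number come from the same mouse.

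**Figure D4:**
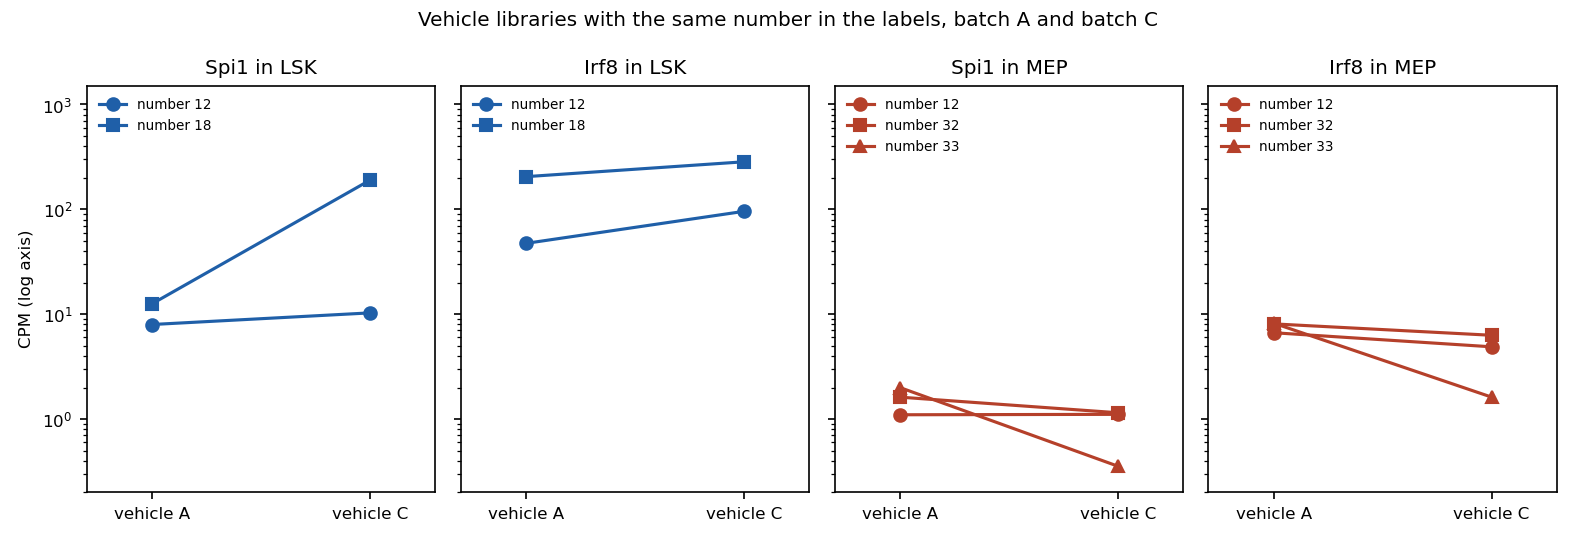
Spi1 and Irf8, in CPM on a log axis, in vehicle libraries of batch A and batch C that carry the same number in the labels (lines join equal numbers). Spi1 of number 18 in LSK goes from 12.6 to 190 CPM, and Spi1 and Irf8 of number 33 in MEP go from 2 to 0.356 and from 8.21 to 1.62 CPM.

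In MEP cells only 4 of the 8 factors, Spi1, Gfi1, Irf8 and Klf4, had enough counts to be tested. Deletion changed none of them by the test: 0 of 4 were called at day 3, at day 7 and between the 2 days, beside 1.21%, 8.42% and 7.47% of 25274 genes, and none had an unadjusted p under 0.05. At day 7, 3 of the 4 lay above every vehicle library, as did 15.2% of all genes tested. Irf8 read 6.66, 8.09 and 8.21 CPM under vehicle A, 2.85, 7.19, 8.93 and 9.89 at day 3, and 12.7, 13.4 and 8.43 at day 7. Spi1 read 1.1, 1.62 and 2 CPM under vehicle and 2.34, 2.8 and 2.04 at day 7, and Klf4 0.734, 0.789 and 0.654 against 1.01, 1.36 and 1.42. The log2 changes at day 7 were 0.59 ± 0.48 for Irf8, 0.60 ± 0.55 for Spi1 and 0.79 ± 0.59 for Klf4, with adjusted p-values of 0.57, 0.613 and 0.525 by edgeR. The median over all genes tested was 0.21 and over the 8052 expressed ones (mean of at least 10 CPM) -0.39, so low genes as a whole read higher at day 7. Marker sums of several cell types stood above vehicle A in the same libraries: LSK markers at 764 to 1270 against 324 to 745 CPM, megakaryocyte at 265 to 404 against 66.8 to 100, B cell at 41.1 to 63.3 against 11.9 to 13.8, late neutrophil at 35.4 to 50.5 against 7.71 to 11.1, and granulocyte and monocyte progenitor at 33.2 to 48.4 against 17.5 to 23.1. Their part in the values at day 7 was not tested. Gfi1 had 1 to 7 counts per day 7 library, and its change was -0.87 ± 1.06. Among the untested genes, Cebpd had 5, 7, 5 and 9 counts in the MEP day 3 libraries, 3, 2 and 1 under vehicle A and 0, 3 and 2 at day 7.

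Beside these values, 5 of the 33 target genes rose in MEP cells at day 7 and none fell, where 1.38% of all genes rose: S100a8 (5.40 ± 0.69), Lyz2 (3.01 ± 0.41), S100a9 (3.86 ± 0.61), Ms4a3 (3.32 ± 0.76) and Mpo (1.58 ± 0.48). Their levels stayed low, with Mpo at 7.88 to 20.1 CPM at day 7 and 3.21 to 4.82 under vehicle. Of the 42 other factors, 5 rose, among them Myb, Meis1 and Gata2, and 2 fell, Junb and the erythroid factor Klf1 (-1.76 ± 0.53). Klf1 is named here after its values were seen. At day 3, Myb and Klf1 (2.77 ± 0.49) rose and no target gene was called.

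Factors passed the test in the comparison of ruxolitinib, at day 7, with vehicle C, at day 0. In MEP cells Spi1 rose and Klf4 fell, 2 of the 4 tested, beside 42% of all genes called, 3.43% as higher and 38.5% as lower. Spi1 read 1.11, 1.15 and 0.356 CPM under vehicle C (32, 35 and 11 counts) and 3.15, 4.28 and 1.14 CPM under ruxolitinib (95, 151 and 39 counts). The third ruxolitinib library lay at the level of the 2 higher vehicle libraries, and the other 2 lay above all of them. The log2 change was 1.71 ± 0.55 (adjusted p = 0.0174 by edgeR). It was 1.34 with an adjusted p of 0.0761 without ruxolitinib replicate 2, and 1.71 with an adjusted p of 0.0836 when only the compared groups were fitted. On the scale of all libraries the level under ruxolitinib was 3.98 ± 2.31 CPM (SD, n = 3). LSK cells of the same batch stood at 88.6 ± 112 CPM under vehicle C (n = 2) and 52.6 ± 32.4 CPM under ruxolitinib (n = 3). LSK vehicle A, in the other batch, stood at 8.64 ± 2.49 CPM (n = 4).

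Klf4 read 0.243, 0.627 and 0.42 CPM under vehicle C (7, 19 and 13 counts) and 0.133, 0.198 and 0.0587 CPM under ruxolitinib (4, 7 and 2 counts). The groups did not overlap, and all 3 vehicle C libraries were themselves below the 3 vehicle A ones. The log2 change was -1.69 ± 0.68 (adjusted p = 0.0434 by edgeR). The call was narrow: the adjusted p was 0.051 with RLE factors, 0.0663 without the count filter, 0.0617 with the replicate number as a block, 0.0601 with the label number as a random block, and 0.0639 to 0.177 without ruxolitinib replicate 1 or 3 or vehicle C replicate 2 or 3. The median over all genes tested was -1.07 and that over expressed genes 0.12. Klf4, a gene of under 1 CPM, thus fell in a comparison in which low genes as a whole read lower, and Spi1 rose against that direction.

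Irf8 and Gfi1 did not pass under ruxolitinib in MEP cells. Irf8 read 4.89, 6.3 and 1.62 CPM under vehicle and 1.06, 3 and 3.96 under ruxolitinib, overlapping groups with a log2 change of -0.67 ± 0.49 (adjusted p = 0.283 by edgeR). Gfi1, at 3 to 30 counts under vehicle and 0 to 9 under ruxolitinib, changed by -1.67 ± 1.03 (adjusted p = 0.192). Among the 4 untested genes, Cebpa had 0 to 10 counts under vehicle C and 4 to 9 under ruxolitinib, and Cebpe 0 to 10 and 0 to 2.

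The response to day 7 deletion differed from that to ruxolitinib for 1 of the 4 factors tested in MEP cells, beside 46% of all genes. That factor was Klf4, with a difference of 2.48 ± 0.90 on the log2 scale (adjusted p = 0.0263 by edgeR), against a median of 1.38 over all genes and -0.50 over expressed ones. It was not called when only the compared groups were fitted (2.22, adjusted p = 0.0551), nor without day 7 replicate 2, ruxolitinib replicate 3 or vehicle C replicate 2 (2.10 to 2.13, adjusted p of 0.0585 to 0.0808). For Irf8 the difference was 1.26 ± 0.69 (adjusted p = 0.133), for Spi1 -1.11 ± 0.78 (0.239) and for Gfi1 0.79 ± 1.47 (0.667). Spi1 is therefore not shown to respond differently to deletion and to the inhibitor. Leaving out vehicle C replicate 3, in which Irf8 was lowest, brought the Irf8 difference to an adjusted p of 0.0424.

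Of the 33 target genes, 9 rose and 11 fell under ruxolitinib in MEP cells, with a median log2 change of -0.35. Of all genes 3.43% rose and 38.5% fell, so the number that fell is near the background. Those that rose included the primary granule genes Mpo (4.95 ± 0.48), Ctsg (3.59 ± 0.68) and Prtn3 (2.57 ± 0.49), with Lyz2 (4.07 ± 0.42) and Ms4a3 (4.14 ± 0.70), and Il6ra (-3.58 ± 0.56) was among those that fell. Mpo stood at 24.8 to 126 CPM under ruxolitinib, 0.776 to 4.02 under vehicle C and 943 to 3750 in LSK vehicle C. Spi1 read 3.15, 4.28 and 1.14 CPM in ruxolitinib replicates 1 to 3. In the same order, the granulocyte and monocyte progenitor markers summed to 49.8, 174 and 136 CPM, against 6.37 to 21 under vehicle C. The LSK markers summed to 818 to 887 CPM against 276 to 721, and the late neutrophil markers to 0.616 to 1.52 CPM against 1.81 to 7.72. The part of LSK-like or granulocyte progenitor cells in the Spi1 level was not tested. Of the 42 other factors, 7 rose, among them Meis1 (3.04 ± 0.39) and Gata2 (2.06 ± 0.40), and 6 fell, among them Irf4 (-3.13 ± 0.69), Maf (-3.19 ± 0.75) and Bach2 (-1.93 ± 0.48).

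**Figure D5:**
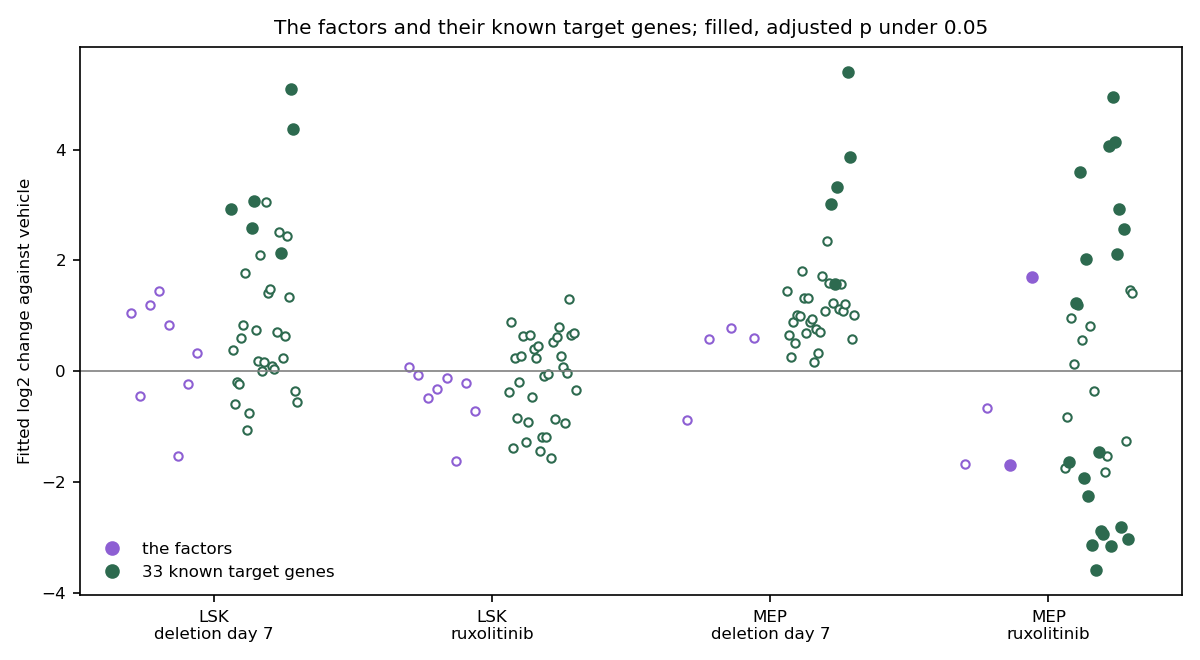
Fitted log2 change against vehicle for the factors (purple; 8 in LSK, 4 in MEP) and for 33 known target genes (green) in 4 comparisons; filled points have an adjusted p under 0.05. At day 7 filled target genes lie above 0 in LSK (6) and MEP (5) with no filled factor, and under ruxolitinib in MEP they lie on both sides (9 above, 11 below).

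Whether the 2 cell types responded differently was tested directly, with LSK and MEP libraries of the same label number taken as independent. No factor passed for the difference between the MEP and LSK responses at day 3, day 7 or under ruxolitinib, beside 0.0529%, 0.458% and 0.292% of 28378 genes. The largest values were 2.07 ± 0.78 for Irf8 at day 7 (adjusted p = 0.263 by edgeR), whose change was negative in LSK and positive in MEP, and 2.68 ± 0.85 for Spi1 under ruxolitinib (adjusted p = 0.136). The Spi1 value followed LSK vehicle C: it was 3.61 without replicate 1 (adjusted p = 0.0102) and -0.58 without replicate 2 (0.875), and 3.29 without LSK ruxolitinib replicate 1 (0.0347). Among the target genes the response of Lyz2 differed at day 7 (2.89 ± 0.57) and under ruxolitinib (3.75 ± 0.64), and those of Mpo (4.58 ± 0.82) and Ms4a3 (3.51 ± 0.77) under ruxolitinib.

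Over the 10 group means on the scale of all libraries, each factor had its own order. Irf8 ran from 169 ± 117 CPM in LSK vehicle C and 135 ± 111 in vehicle A through 119 ± 16.8 at LSK day 3 to 53.8 ± 17.4 under ruxolitinib and 47.8 ± 40.6 at LSK day 7. Of these neighbours, those at day 3 and under ruxolitinib were apart by more than their SDs, across batches, and the others were not. The MEP groups followed at 12.3 ± 3.2 (day 7), 8.26 ± 0.679 (vehicle A), 7.78 ± 3.24 (day 3), 5.01 ± 2.39 (vehicle C) and 3.63 ± 1.92 CPM (ruxolitinib). Cebpe was highest at LSK day 7 (9.19 ± 4.95 CPM), ahead of vehicle C (6.09 ± 4.51), ruxolitinib (4.79 ± 1.54), vehicle A (3.27 ± 2.07) and day 3 (2.87 ± 2.37), each within the spread of the next. The MEP and LSK groups were interleaved for Klf4, Cebpb and Cebpd. For Klf4, LSK day 3 (2.17 ± 1.07 CPM) and LSK vehicle A (1.38 ± 0.845) were followed by MEP day 7 (1.34 ± 0.239), and MEP ruxolitinib was last (0.181 ± 0.102).

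Genes with the most similar profiles over the 10 group means were sought among 10814 genes by Pearson's r, which is a description across groups that share batches and cell types. Spi1 was closest to Ttc8 (r = 0.994), Fmnl1 (0.984) and Gchfr (0.982). Irf8 was closest to Rasa4 (0.986), Tecpr1 (0.982) and Irf5 (0.979), another interferon regulatory factor. Cebpe was closest to Stard8 (0.985), which was also the third for Gfi1 (0.974), after Tnfrsf26 (0.984) and Sytl1 (0.976). Cebpa was closest to Bex1 (0.984) and Hoxa7 (0.982), and Klf4 to Pmel (0.984). The rarest factors had weaker best matches, Krtcap3 for Cebpb (0.948) and Ifi27l1 for Cebpd (0.863).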

How the data were processed

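The authors deposited raw read counts per gene symbol for 32 libraries. STAR and featureCounts with the mm10 build are named in the submitters' processing notes, and no source used here gives their versions, the annotation or the strand setting. The labels' protocols name the Direct-Zol kit and paired-end Takara HT-Seq libraries. Groups came from titles and characteristics. Replicates are not stated to be separate mice, so p-values measure the spread between these libraries. All 8 factors are named, with the 3 genes most like each and up to 6 called genes with the smallest p of a list. They and the gene lists were chosen with earlier results of these data known.

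edgeR 4.0.16 (R 4.3.3) was fitted with 1 mean per group after filterByExpr (minimum count 10) and TMM scaling, over 16 LSK, 16 MEP or all 32 libraries, leaving 26930, 25274 and 28378 genes. CPM values are those counts scaled by the TMM library size of that fit. Symbols were matched through RefSeq synonyms, and exon lengths are from GENCODE M21. The code was tested on simulated counts. Alternatives were RLE factors, DESeq2 1.42.0, no filter, expressed genes only, compared groups only, the replicate block, limma 3.58.1 voom with a random block, and leaving out each replicate. For MEP day 7 against day 3, libraries with the same number in the titles deviated together (correlations of 0.13 to 0.2), though their numbers in the descriptions differ.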

Additional observations from a re-analysis of the deposited data

Results flagged for a closer look

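Among the groups of 4 libraries, 24 sets of 1 factor in 1 group were checked for a library far from the others, of which chance alone flags about 1 in 20. Cebpa stood at 3.14 CPM in LSK day 7 replicate 1, against 1.83 to 2 CPM in the other 3. Klf4 stood at 2.59 CPM in LSK day 7 replicate 3, against 0.879 to 1.1 CPM. Cebpe stood at 0.156 CPM in MEP day 3 replicate 2, which is 4 counts. The responses of Klf4 to day 7 deletion and to ruxolitinib in MEP cells differed by 2.48 on the log2 scale (edgeR, adjusted p = 0.0263).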

How the results depend on the processing

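No called value changed direction under any alternative. For MEP ruxolitinib, 2 factors were called, and 1 with RLE factors, no count filter, the replicate block or the random block. With the compared groups only, 0 were called, and Klf4 had too few counts to be tested. With expressed genes only, 0 were called, as no factor was tested. When a replicate was left out, 1 to 2 were called. The response difference in MEP was called for 1 factor, for 0 with expressed genes or compared groups only, and for 0 to 2 without 1 replicate. In LSK, DESeq2 called 1 factor for day 7 against day 3, and leaving out a replicate gave 0 to 1 at day 7. MEP against LSK called 5 in each batch, 2 in each among expressed genes (where only Irf8 and Spi1 were tested), and 3 to 5 in batch A without 1 replicate. The response difference to ruxolitinib gave 0 to 1. The replicate block changed no call but that of Klf4 (-1.66). In 7 of the 8 treatment comparisons same-numbered libraries did not all deviate together (correlations of -0.32 to 0.38). Without 1 of the 2 LSK vehicle C libraries, the other is assumed to vary like the other groups. Over all genes, LSK day 7 gave 28 calls, 230 with the replicate block, 332 with DESeq2 and 911 without day 7 replicate 4. Low counts limit Cebpb and Cebpd everywhere and Cebpa, Cebpe, Gfi1 and Klf4 in MEP. Under ruxolitinib in MEP, Klf4 had 2 to 7 counts per library and Gfi1 0 to 9.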
